A study of Mus musculus with 18 samples.

Results

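Grb10 (ENSMUSG00000020176) is 1 of the 31053 mouse genes counted in every library of the series. It lies on chromosome 11 of mm10, from 11930508 to 12038683 on the minus strand, and is annotated as protein coding with 9 transcripts, 6 of them coding. It was selected on its low level in Dnmt1 KO embryos relative to WT embryos, so the Dnmt1 KO levels below are a description with no test. The Dnmt3a KO and Dnmt3b KO contrasts and the order of WT cell classes were not what the choice rested on, and were tested. They use the same WT embryos as the Dnmt1 KO contrast, so they are not independent of it. Other genes were tested too, but were chosen with earlier results of these data known.

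The data are single-cell transcript counts from 18 libraries, each described as made from a single dissociated mouse embryo at E8.5 on the 129S4/SvJae background. The labels give 7 WT embryos and homozygous null embryos for Dnmt1 (n = 3), Dnmt3a (n = 4) and Dnmt3b (n = 4), called Dnmt1 KO, Dnmt3a KO and Dnmt3b KO. The p-values below measure the spread between these embryos. All came from heterozygous matings and had the matching wild types as controls, and the KO embryos were genotyped by PCR on the ectoplacental cone. Dnmt1 is the enzyme that copies DNA methylation onto newly made strands, whereas Dnmt3a and Dnmt3b set methylation on unmethylated DNA.

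Growth factor receptor bound protein 10 is an adaptor that binds the insulin and IGF1 receptors and dampens their signal, and mice that lack the maternal copy grow large. Grb10 is imprinted: in most tissues the maternal copy is the active one, while neurons use the paternal copy from a different promoter. The maternal copy carries a methylation mark that is laid down in the oocyte and kept through later cell divisions. The counts come from the 3′ ends of transcripts and cannot tell the parental copies or the promoters apart.

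Both starts that RefSeq lists for Grb10 are shown because the CG content of the windows around them differs widely. The annotation also holds coding transcripts that start at 12038683, 12026732, 12026324 and 11970642, outside both windows. A Grb10 count in any library adds up transcripts from all starts. Which start each parental copy uses, and whether either window holds the oocyte mark, was not determined here. Each window runs from 250 bases before the start to 50 after it on the minus strand of GRCm38.p6, with every CG, the site that these enzymes methylate, in capitals. The first is chr11:12037371-12037670 and the second chr11:12027922-12028221.
Grb10, first start: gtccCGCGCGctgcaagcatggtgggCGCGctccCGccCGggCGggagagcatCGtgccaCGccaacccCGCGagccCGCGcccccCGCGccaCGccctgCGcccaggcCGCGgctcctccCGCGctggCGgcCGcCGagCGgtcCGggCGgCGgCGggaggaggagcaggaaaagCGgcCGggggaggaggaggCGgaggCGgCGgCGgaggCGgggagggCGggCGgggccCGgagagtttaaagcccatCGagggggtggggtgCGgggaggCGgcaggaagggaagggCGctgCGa
Grb10, second start: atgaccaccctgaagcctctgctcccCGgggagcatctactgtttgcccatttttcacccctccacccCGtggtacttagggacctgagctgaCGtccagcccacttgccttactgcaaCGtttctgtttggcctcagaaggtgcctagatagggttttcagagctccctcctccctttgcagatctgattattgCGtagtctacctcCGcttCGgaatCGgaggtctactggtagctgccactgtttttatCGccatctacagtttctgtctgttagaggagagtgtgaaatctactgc
The first window holds 45 CG and 80.0% G or C bases, and 98.1% of the 32851 RefSeq promoter windows of this length hold fewer CG. The second holds 9 CG and 52.3% G or C, against a median of 7 CG over all windows. Methylation was not measured in these libraries, and the CG content is a property of the reference sequence only.

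Over the series, 128881 barcodes held at least 1500 UMIs (counted transcript molecules), and 527530 of those UMIs were Grb10. After the cell filters 108019 cells and 478128 Grb10 UMIs were left, from 1361 to 12596 cells per library, with 36466660 to 234638944 UMIs in total and a median of 4382 to 60557 UMIs per cell. The Dnmt3b KO libraries numbered 1 and 2 shared 12249 barcodes, whereas no other pair of libraries shared more than 133. Of the 7735 kept cells with a shared barcode, 94.7% fell in the same class in both, so the 2 libraries were summed and counted as 1 sample, which left n = 3 for Dnmt3b KO. The totals of cells and UMIs above hold both libraries, so each shared barcode enters them 2 times. All Dnmt1 KO and Dnmt3a KO embryos were male, as were Dnmt3b KO 1, 2 and 11, and 1 of the 7 WT embryos.

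The targeted genes were read first. Dnmt1 had 104 ± 10.8 CPM (counts per 1000000 UMIs; mean ± SD) in WT and 15.2 ± 0.40 CPM in Dnmt1 KO. Dnmt3a had 29.8 ± 3.90 CPM in WT and 7.44 to 11.7 CPM in the Dnmt3a KO embryos. Dnmt3b had 62.4 ± 17.8 CPM in WT and 57.5 to 68.4 CPM in Dnmt3b KO, so its transcript did not check those labels. Of the samples labelled Dnmt3b KO, 2 had little Dnmt3a transcript as well: 15.1 CPM in number 11 and 7.57 CPM in number 12, against 32.04 CPM in numbers 1 and 2 together. For this reason the whole-embryo Grb10 difference in Dnmt3b KO is given with and without those libraries, while the class results and gene lists below include both.

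Grb10 was close to absent in Dnmt1 KO embryos and within the WT range in every Dnmt3a KO embryo and every sample labelled Dnmt3b KO. Over all kept cells, the 7 WT embryos had 146, 191, 173, 234, 212, 170 and 147 CPM, a mean of 182 ± 32.8 CPM. The 3 Dnmt1 KO embryos had 1.60, 1.22 and 3.11 CPM, a mean of 1.98 ± 1.00 CPM. Every Dnmt1 KO embryo thus lay far below every WT embryo, at 1.09% of the WT mean, and the fitted log2 fold change was -6.47. Of all 18766 genes tested, 16.2% had every Dnmt1 KO embryo below every WT embryo, and 6.04% were called lower. A gene counts as called here if its adjusted p was below 0.01 and it changed by 1 or more on the log2 scale.

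**Figure D1:**
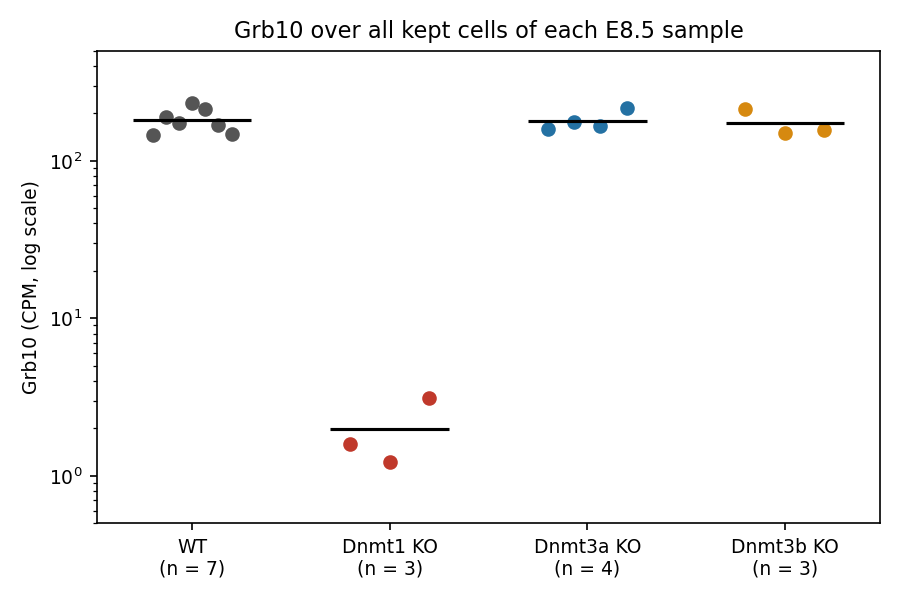
Grb10 in CPM on a log scale over all kept cells, with 1 point per sample and a black line at the group mean; Dnmt3b KO 1 and 2 are summed into 1 point. The 3 Dnmt1 KO points sit between 1.22 and 3.11 CPM, while all other points sit between 146 and 234 CPM.

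The residual level rested on few molecules. Dnmt1 KO 1, 2 and 3 held 166, 159 and 243 Grb10 UMIs, whereas the shallowest WT library held 7742. The 95% Poisson intervals, which cover counting error only, were 1.36 to 1.86 CPM, 1.04 to 1.42 CPM and 2.73 to 3.53 CPM, so Dnmt1 KO 3 was higher than the other two by more than counting error. All 3 Dnmt1 KO embryos were male, and the male WT embryo, with 191 CPM, gave a log2 difference of -6.59. The mix of cells also differed: weighting the class levels by the WT class shares gave 188 ± 22.6 CPM in WT and 2.32 ± 0.81 CPM in Dnmt1 KO, although 50.1% to 76.6% of the WT weight could be filled by the Dnmt1 KO classes.

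Grb10 in Dnmt3a KO was 160, 176, 166 and 217 CPM (Dnmt3a KO 1, 2, 13 and 14), a mean of 180 ± 25.8 CPM. These values lay inside the WT range. The log2 fold change was -0.04 (95% interval -0.42 to 0.34; edgeR quasi-likelihood test, adjusted p = 0.98), so a change as large as 1 in either direction lies outside the interval. Of all genes tested, 0.213% were called in Dnmt3a KO. All Dnmt3a KO embryos were male, and with sex in the model the difference was -0.23. The 4 libraries counted on the combined human and mouse reference had 146 (WT 1), 160 and 166 (Dnmt3a KO 1 and 13) and 151 CPM (Dnmt3b KO 11), and with the reference as a term the Dnmt3a KO difference was 0.03.

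In the samples labelled Dnmt3b KO, Grb10 was 214 CPM for numbers 1 and 2 together, 151 CPM for number 11 and 156 CPM for number 12. All 3 values again lay inside the WT range. The log2 fold change was -0.10 (95% interval -0.52 to 0.32; edgeR quasi-likelihood test, adjusted p = 0.84), and 1.80% of all genes were called in this comparison. Grb10 was lower in the 2 samples in which Dnmt3a was also low. Without both of them the single sample left was 0.23 above the WT mean on the log2 scale, which allows no test.

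In WT embryos Grb10 UMIs were found in every cell class, and the level differed widely between classes. Free RNA in the droplets was not separated from the RNA of the cells. Its mean was highest in notochord, the rod of midline mesoderm that patterns the neural tube, with 496 ± 120 CPM (n = 4). It was lowest in extraembryonic (ExE) endoderm, the yolk sac lining, with 30.2 ± 7.92 CPM (n = 7), a 16.4-fold lower mean. In ExE endoderm WT 2, where these cells had the lowest median depth (3023 UMIs), had the highest level, 43.7 CPM, against 22.5 to 36.9 CPM in the other embryos. Notochord exceeded cardiomyocytes in 3 of 4 embryos (exact permutation p = 0.25), and among classes found in all 7 embryos the ratio of highest to lowest was 11.3.

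After notochord came cardiomyocytes (340 ± 57.2 CPM), pharyngeal mesoderm (317 ± 61.1), gut endoderm (307 ± 41.9), allantois (299 ± 39.2) and head mesenchyme (256 ± 30.6). The means of cardiomyocytes to allantois fell within the spread between embryos. The cluster named head mesenchyme was led by Lhx1 and Osr1, which are markers of intermediate mesoderm. Its head mesenchyme markers Prrx1 and Twist1 were also among the 10 leading genes, and the scores were 1.59 for head mesenchyme and 1.12 for intermediate mesoderm. The name of this class is therefore uncertain. Hindbrain and spinal cord (229 ± 32.6 CPM), somitic mesoderm (224 ± 39.8), presomitic mesoderm (205 ± 27.7), neuromesodermal progenitors or NMPs (190 ± 25.8) and surface ectoderm (189 ± 23.5) formed the middle of the order. Neural crest (178 ± 34.4 CPM), endothelium (172 ± 31.4), ExE mesoderm (148 ± 28.6) and forebrain and midbrain (132 ± 19.9) followed. Erythroid cells (90.3 ± 14.9 CPM) and immune cells (83.1 ± 21.8, n = 3) were the lowest classes apart from ExE endoderm. Of the neural classes named here, forebrain and midbrain lay below hindbrain and spinal cord, a difference that was not tested. The forebrain and midbrain cluster was led by Six3 and Hesx1, while a cluster led by En1, a marker of the same class, was left unnamed. Hindbrain and spinal cord included a cluster of shallow cells, led by mt-Nd6, with a median depth of 0.18 of that of their libraries. Allantois (0.26), ExE endoderm (0.21) and ExE mesoderm (0.21) also included a shallow cluster each. ExE ectoderm, the trophoblast, reached 25 cells in 1 WT embryo, where it had 73.5 CPM.

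Neighbouring classes in this order were compared within embryos by an exact two-sided paired permutation test of log2(CPM + 1), adjusted over the 17 pairs. In 3 pairs the higher class led in 7 of 7 embryos, the most that 7 embryos can show. These were allantois over the cells named head mesenchyme (0.22 ± 0.10 on the log2 scale), the cells named head mesenchyme over hindbrain and spinal cord (0.17 ± 0.14), and forebrain and midbrain over erythroid cells (0.54 ± 0.12). Each had an exact permutation p of 0.016, the smallest possible, and an adjusted p of 0.089. No neighbouring pair passed 0.05 after adjustment and 4 did before it, and classes further apart in the order were not tested. The order came from the same levels. At the smallest possible p a pair passes after adjustment only if several others reach it too, so pairs that did not pass are not shown to be alike. Immune cells exceeded ExE endoderm by 1.44 ± 0.22, the largest step, in 3 of 3 embryos, where an exact permutation test cannot go below 0.25.

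**Figure D2:**
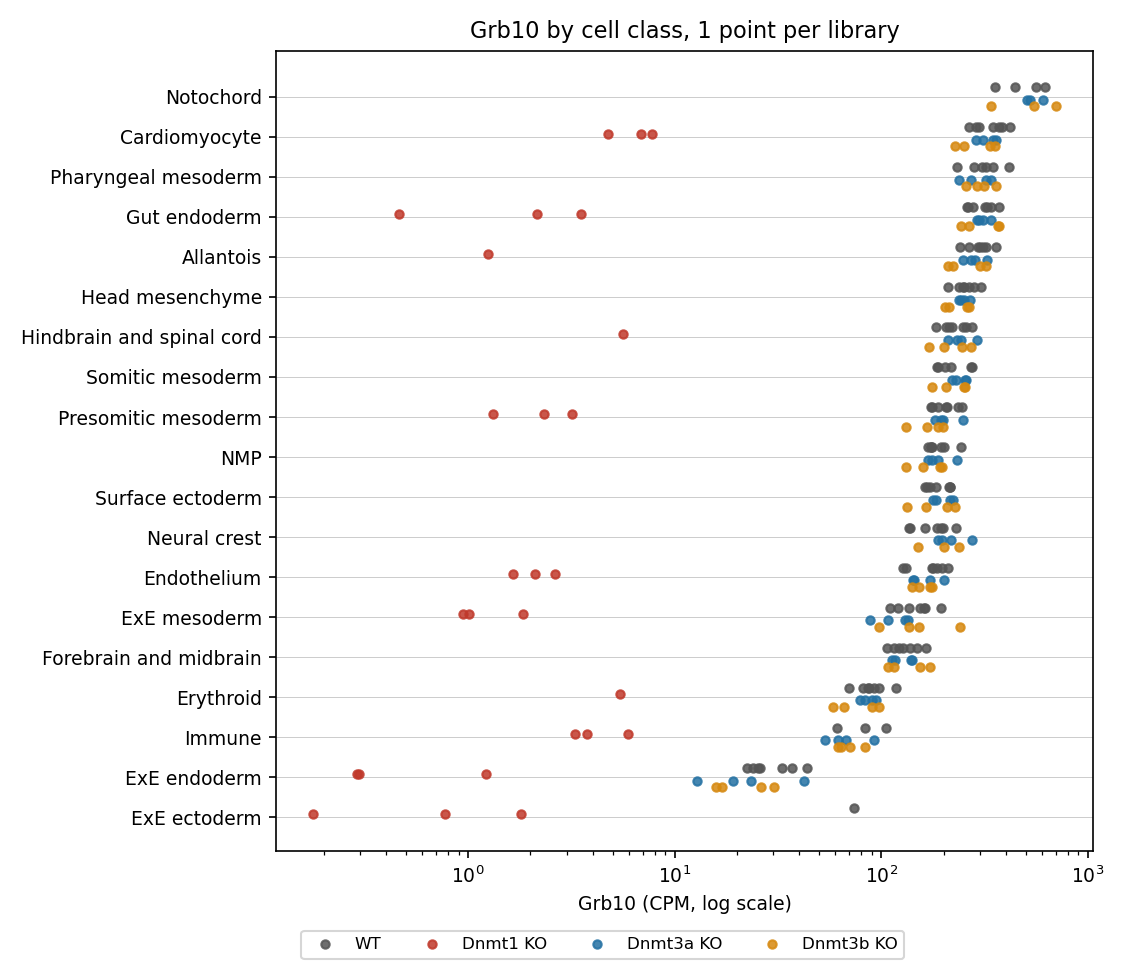
Grb10 in CPM on a log scale in each cell class, ordered by the WT mean, with 1 point per library of at least 25 cells in the class; ExE ectoderm, with 1 WT library, is placed last. WT, Dnmt3a KO and Dnmt3b KO points overlap in each class they share, and the Dnmt1 KO points lie below 10 CPM throughout.

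The embryos also kept much of their rank from class to class. In the 14 classes with all 7 WT embryos, WT 4 was the highest in 9 classes and was among the 2 highest in 11. WT 1 and WT 7 were the lowest embryo in 7 and 5 classes. Over the whole embryo the WT embryos ran from 146 to 234 CPM, and with class levels weighted by the mean WT class shares from 161 to 227 CPM. Classes were rebuilt here from marker genes, and classes of 1 embryo come from 1 library and are not independent.

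In Dnmt3a KO, Grb10 was called in 0 of 18 classes and in Dnmt3b KO in 0 of 16. The Dnmt3a KO log2 fold changes ran from -0.37 (ExE mesoderm) to 0.29 (neural crest), with a median of -0.03, and 0 classes had an unadjusted p under 0.05. Over all genes, 0.111% of gene and class pairs were called in Dnmt3a KO and 0.694% in Dnmt3b KO. The Dnmt3b KO values ran from -0.59 (ExE endoderm) to 0.10 (ExE mesoderm), with a median of -0.15. They were below 0 in 15 of 16 classes, and 2 classes, allantois (-0.29) and presomitic mesoderm (-0.30), had an unadjusted p under 0.05. The smallest adjusted p was 0.21 (edgeR). The classes share the same 3 samples, and in both allantois and presomitic mesoderm the libraries labelled Dnmt3b KO 11 and 12 were the lower ones. DESeq2 called 0 classes in either comparison.

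**Figure D3:**
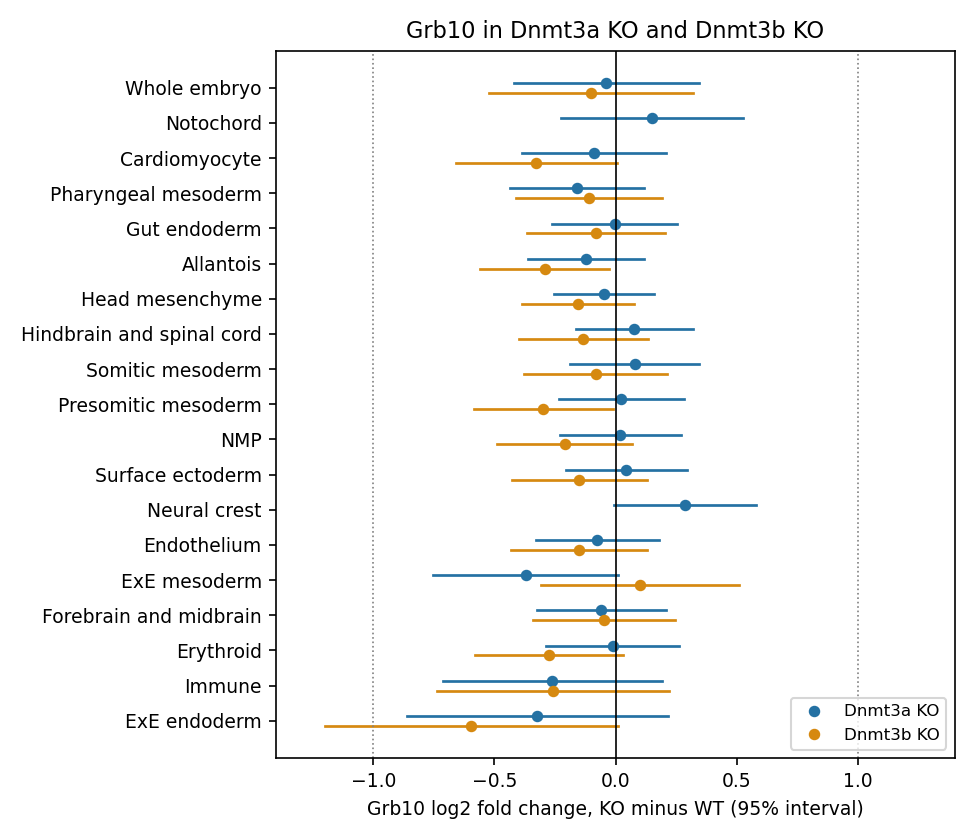
Log2 fold change of Grb10 (KO minus WT) with 95% intervals over the whole embryo and in each class with at least 3 samples in both groups; dotted lines mark -1 and 1. Every Dnmt3a KO interval and all but 2 of the Dnmt3b KO class intervals include 0.

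In Dnmt1 KO, 7 named classes had at least 25 cells in all 3 embryos and also in at least 3 WT embryos. ExE ectoderm had them in all 3 Dnmt1 KO embryos but in 1 WT embryo only, and is not among the 7. In 7 of 7 every Dnmt1 KO embryo lay below every WT embryo, against 20.4% of all gene and class pairs with a mean of 1 CPM or more in WT. Several classes were held by different clusters in the 2 groups, so the cells compared were not the same throughout. Of the Dnmt1 KO cardiomyocytes, 100% lay in a cluster led by Sfrp5, Mef2c and Wnt2, while 63.3% of those of WT lay in a cluster led by Actc1, Myl7 and Ttn. Presomitic mesoderm of Dnmt1 KO lay in a cluster led by Mesp1 (99.2%) and that of WT in one led by Pcdh19 and Dll3 (100%). In ExE endoderm and ExE mesoderm the largest cluster of Dnmt1 KO cells, with 70.2% and 86.2% of them, was not the largest one of WT cells, which held 51.5% and 39.1% of those. Gut endoderm, endothelium and immune cells lay mostly in the same cluster in both groups.

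Grb10 was also low in the 3 classes that shared their main cluster. Gut endoderm had 0.465, 3.52 and 2.16 CPM in Dnmt1 KO 1, 2 and 3 and 307 ± 41.9 CPM in WT. Endothelium had 2.64, 1.64 and 2.11 CPM against 172 ± 31.4 CPM. Immune cells had 3.30, 3.75 and 5.95 CPM against 83.1 ± 21.8 CPM, the smallest ratio of the 7 classes, 19.2-fold. This ratio rests on few cells: 3 of the 276 Dnmt1 KO immune cells, 1 in each embryo, held 25 of their 49 Grb10 UMIs. The lowest level was that of ExE endoderm, 0.60 ± 0.53 CPM in Dnmt1 KO and 30.2 CPM in WT.

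Of the classes with at least 25 cells, the cells named cardiomyocytes had the highest residual level in each of the 3 Dnmt1 KO embryos, at 6.84, 4.76 and 7.77 CPM, or 6.46 ± 1.54 CPM against 340 CPM in WT. All of these Dnmt1 KO cells lay in the cluster led by Sfrp5, Mef2c and Wnt2, which has 1 of the cardiomyocyte markers, Tnni1, among its 10 leading genes. Few cells held much of this: in Dnmt1 KO 1, 2 and 3, 2 of 110, 2 of 99 and 6 of 221 cells held 23 of 54, 11 of 18 and 50 of 102 Grb10 UMIs. The rank thus rests on 2 cells in Dnmt1 KO 2 and on 6 cells in Dnmt1 KO 3. The cardiomyocytes were 7.65%, 3.32% and 10.1% of the kept cells of Dnmt1 KO 1, 2 and 3, and held 32.5%, 11.3% and 42.0% of the Grb10 UMIs. Dnmt1 KO 3, the embryo with the most residual Grb10, was also the one with the largest share of cardiomyocytes; the part of this share in its level was not tested. ExE ectoderm, which made up 31.3% of Dnmt1 KO 2, had 1.80, 0.77 and 0.18 CPM. The order of classes within Dnmt1 KO was not tested.

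Counted per cell, most Dnmt1 KO cells held no Grb10 UMI, which in a single cell does not show that the gene was silent. No Grb10 UMI was found in 92.9%, 96.0% and 94.3% of the cells of Dnmt1 KO 1, 2 and 3, against 14.5% to 41.4% of the cells of the WT embryos. Cells differ in depth, so each was thinned to 1500 UMIs, which left no kept cell out. The share of cells with a Grb10 UMI was then 22.1% ± 3.18 in WT (77.6% unthinned), 0.30% ± 0.10 in Dnmt1 KO (5.59%), 21.6% ± 2.31 in Dnmt3a KO (71.4%) and 22.6% ± 3.67 over the 4 libraries labelled Dnmt3b KO (73.7%). The mean of the median UMIs per cell was 32556 in WT and 38246 in Dnmt1 KO, and those of the single Dnmt1 KO libraries were 60557, 38000 and 16181. Since no WT class was free of Grb10, no class gave a background share. The lowest WT share was 4.502% ± 1.76 in ExE endoderm, above the share in every Dnmt1 KO class, the highest of which was cardiomyocytes at 1.04% ± 0.31.

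**Figure D4:**
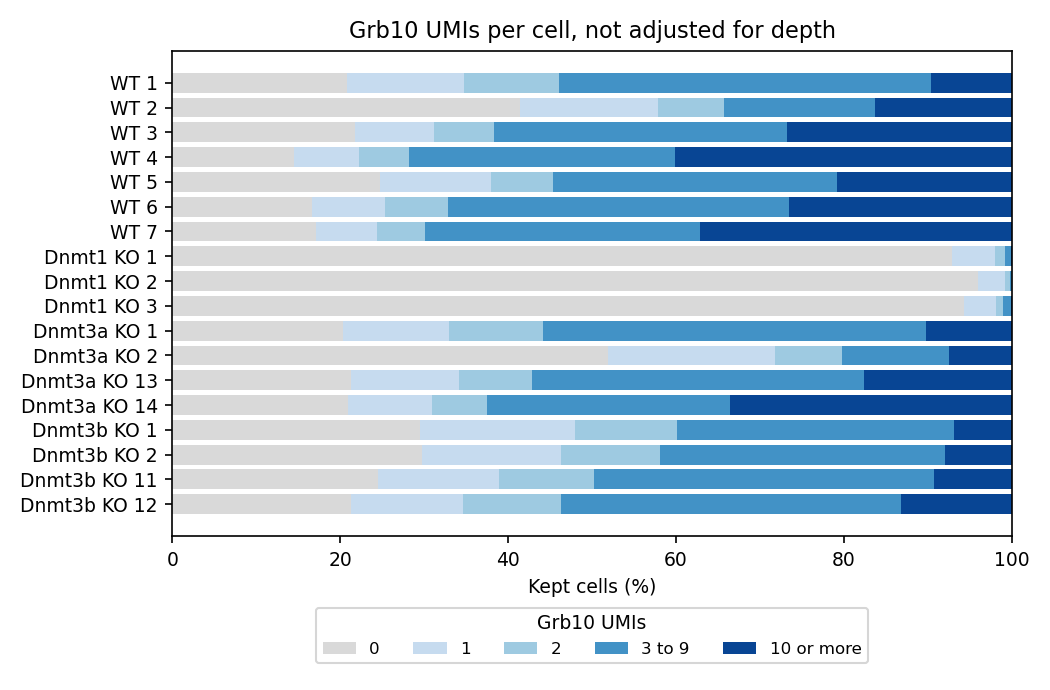
Share of kept cells (%) of each of the 18 libraries with 0, 1, 2, 3 to 9 and 10 or more Grb10 UMIs, not adjusted for depth. In the 3 Dnmt1 KO libraries 92.9% to 96.0% of the cells hold 0, while in WT libraries 14.5% to 41.4% do.

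Of 6599 Dnmt1 KO cells, 6254 had no Grb10 UMI, 252 had 1, 77 had 2 to 4 and 16 had 5 or more. The 16 cells held 22.4% of all Grb10 UMIs of the group, and the largest count in 1 cell was 14. Of these cells 10 were cardiomyocytes, 3 were immune cells, and endothelium, ExE mesoderm and the unnamed cells held 1 each. Each of the 16 had UMIs of Y-linked genes, 3 had a UMI of Xist, the RNA of the inactive X chromosome, and 4 had one of a maternal decidua marker (Prl8a2, Prl3c1, Pgr or Cryab). Of the 6254 cells with no Grb10 UMI, 469 had a UMI of Xist and 1895 one of a decidua marker. Their median depth was 59612, 37458 and 10071 UMIs in Dnmt1 KO 1, 2 and 3, and that of the 16 cells was 73989, 22906 and 79579. Over all kept cells Xist had 14.7, 6.60 and 8.03 CPM in Dnmt1 KO 1, 2 and 3, and 0.19 CPM in WT 2, the male WT embryo. The source of the Xist UMIs was not tested. Over the Dnmt1 KO embryos the decidual prolactins Prl3c1 and Prl8a2 had 0 CPM and 0 to 0.023 CPM, beside 0 CPM and 0 to 0.037 CPM in WT. Cryab, which the embryonic heart also expresses, had 24.3 to 29.0 CPM, beside 25.7 to 49.1 CPM in WT. Pgr was higher than the prolactins, with 1.388 to 2.702 CPM in Dnmt1 KO and 0.554 to 1.505 CPM in WT, ranges that overlap. The part of RNA from other cells in these 16 was not tested. Dnmt1 in these cells rested on 8, 1 and 12 UMIs in Dnmt1 KO 1, 2 and 3, or 24.8, 17.0 and 14.6 CPM, beside 14.5 to 15.5 CPM in the cells with no Grb10 UMI. In WT the largest count in 1 cell was 56 to 99 UMIs.

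Of the 9 other genes that start within 500 kb of the Grb10 start, 5 passed the filter on low counts, and 1 of them fell in Dnmt1 KO, beside 14.2% of all genes called there. Ikzf1, which encodes the blood lineage factor Ikaros and starts 354 kb from Grb10, had 1.502, 1.533 and 1.857 CPM in Dnmt1 KO and 2.43 to 9.69 CPM in WT (median 4.03). It fell by 1.61 on the log2 scale (SE 0.43; edgeR adjusted p = 0.0074). The call was lost without any single Dnmt1 KO embryo or without WT 1 (adjusted p 0.011 to 0.038). Erythroid cells, a blood class, made up 0.93% ± 0.58 of Dnmt1 KO cells and 11.6% ± 6.96 of WT cells, and their part in the fall was not tested. Within classes Ikzf1 could be tested in 2 and was called higher in 1 of them (2.63) and not in the other (-0.04).

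The other neighbours did not pass over the whole embryo. All 5 tested neighbours had an unadjusted edgeR p under 0.05 in Dnmt1 KO, and their median log2 fold change was -0.59, against 0.01 over all genes. The share of all genes under 0.05 was not counted, so gene counts at this limit, here and below, are not shown to exceed it. Within classes 2 of the 22 pairs of neighbours were higher and 1 was lower in Dnmt1 KO, beside 9.05% of all pairs called, with Cobl higher in 1 of 4 classes and Ddc lower in 1 of 6. Fignl1, 230 kb away, had 49.8 ± 2.34 CPM in Dnmt1 KO and 62.8 ± 4.44 CPM in WT, a log2 difference of -0.27 (edgeR adjusted p = 0.025). Ddc, which makes dopamine and serotonin from their precursors and is imprinted in the heart, starts 141 kb away and had 27.7, 19.2 and 11.999 CPM in Dnmt1 KO against 11.05 to 17.6 CPM in WT. Its groups overlapped, and the difference of 0.45 had an edgeR adjusted p of 0.083. Cobl, an actin nucleator that is also imprinted in some tissues and starts 426 kb away, had 1.56 ± 0.13 CPM against 2.49 ± 0.89 CPM. 1700042O10Rik, annotated antisense within Ddc, had 0.38 ± 0.15 CPM against 0.60 ± 0.12 CPM. In Dnmt3a KO and Dnmt3b KO 0 of the 5 were called by edgeR, with 0 and 1 at an unadjusted p under 0.05, and DESeq2 also called 0.

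The insulin and IGF pathway, on which Grb10 acts, was followed with 35 genes, all of which were tested. In Dnmt1 KO 8 fell and 0 rose, a share of 8 in 35 beside 14.2% of all genes called either way. The median log2 fold change of the list was -0.14, and that of all genes 0.01, and 19 of the 35 had an unadjusted p under 0.05. Since the share of all genes under 0.05 was not counted, the 19 are not shown to be an excess. Cell shares differ between these groups, and fewer cells of a type cannot be told apart from less RNA per cell in whole-embryo sums. Within the 7 classes 6 of 214 gene and class pairs of the list rose and 34 fell (18.7% called, against 9.05% over all genes, of which 4.45% were lower).

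Both tested ligands that share the Igf2 locus fell. Igf2, the fetal growth factor and itself imprinted, had 0.45, 1.88 and 0.49 CPM in Dnmt1 KO and 7.06 to 12.1 CPM in WT (median 9.46). The groups did not overlap, and Igf2 fell by 3.19 on the log2 scale (SE 0.43, edgeR adjusted p = 2.2e-05; -4.26 without Dnmt1 KO 2) and was called lower in 6 of 6 classes tested (-7.44 to -5.62). Ins2, an insulin gene next to it, fell by 4.09 (edgeR adjusted p = 0.00045), from 0.55 ± 0.37 CPM to 10 UMIs over the 3 embryos. The fitted value was -4.99 without Dnmt1 KO 2. The call was lost with sex in the model (edgeR adjusted p = 0.039). Igf1 had 5.54 ± 0.35 CPM in Dnmt1 KO and 6.47 ± 1.62 CPM in WT and was not called, and within classes it was called lower in 1 of 6.

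Among the receptors, those that Grb10 binds were not called over the whole embryo: Insr had 11.6 ± 1.89 CPM in Dnmt1 KO against 9.03 ± 1.47 CPM in WT, and Igf1r 34.1 ± 13.4 CPM against 49.9 ± 7.88 CPM. Within classes Insr was called in 0 of 7 and Igf1r lower in 1 of 7. Igf2r, an imprinted receptor that removes Igf2 from the cell surface, had 24.97, 14.07 and 21.51 CPM in Dnmt1 KO and 59.5 to 87.5 CPM in WT (median 69.1). It fell by 1.80 (SE 0.17, edgeR adjusted p = 4.9e-07) and was called lower in 5 of 7 classes. Insrr, the insulin receptor related receptor, had 2 UMIs over the Dnmt1 KO embryos and 90 over the WT embryos, a ratio of 11.8 (95% interval 3.16 to 98.7, counting error only), and was called lower, though not without Dnmt1 KO 1 or Dnmt1 KO 2 (edgeR adjusted p = 0.015 and 0.019).

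Of the adaptors that carry the signal, Irs4 and Sh2b2 fell. Irs4, an insulin receptor substrate, had 1.14, 0.61 and 1.73 CPM in Dnmt1 KO and 5.41 to 12.7 CPM in WT, a fall of 2.82 (SE 0.35, edgeR adjusted p = 9.5e-06). Within classes it was called lower in 1 of 3. Sh2b2, a scaffold at the receptor, had 1.19 ± 0.36 CPM against 3.53 ± 0.54 CPM and fell by 1.501, and within classes it was called lower in 2 and higher in 1 of 4. Irs1, Irs2, Shc1, Grb2 and Sh2b1 were not called over the whole embryo, and of these Irs2 was called higher in 2 of 7 classes. The paralogs of Grb10, which bind the same kind of receptor, were not called over the whole embryo either: Grb7 had 20.9 ± 5.55 CPM in Dnmt1 KO against 17.0 ± 2.64 CPM (log2 difference 0.37, edgeR adjusted p = 0.048), and Grb14 4.42 ± 1.12 CPM against 4.77 ± 0.79 CPM (-0.05, edgeR adjusted p = 0.87). Within classes Grb7 was called higher in 1 of 6, and Grb14 higher in 1 and lower in 1 of 5.

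Downstream of the receptors, 0 of 9 kinases and targets and 0 of 6 known partners of Grb10 passed the call over the whole embryo. The kinase Akt1 had a log2 difference of -0.57 (edgeR adjusted p = 0.011) over the whole embryo and was called lower in 5 of 7 classes, by 1.18 at most. Gigyf2, named for its binding of Grb10, had 71.1 ± 13.6 CPM in Dnmt1 KO against 52.0 ± 6.01 CPM (0.52, edgeR adjusted p = 0.00092), a difference under the fold needed for a call. The kinase mTOR, which phosphorylates Grb10 protein, is encoded by Mtor, which had 15.4 ± 1.70 CPM against 14.1 ± 1.28 CPM. Of the binding proteins that hold IGFs outside the cell, Igfbp3 fell by 1.59 (2.34 ± 0.48 CPM against 7.32 ± 0.87) and Igfbp5 fell by 1.59 (21.0 ± 5.35 CPM against 65.9 ± 17.9). Over the whole embryo 0 of the 35 genes were called by edgeR in Dnmt3a KO or Dnmt3b KO, with 3 and 7 at an unadjusted p under 0.05, and DESeq2 also called 0. Within classes 0 of 551 pairs were called in Dnmt3a KO and 1 of 497 in Dnmt3b KO, where Igfbp5 was higher in 1 class.

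A pair of lists places Grb10 among other imprinted genes. List A holds 14 genes whose active copy carries the germline methylation mark or depends on it in cis, as Grb10 does, with Grb10 left out. List B holds 25 genes whose methylated copy is the silent one, of which 22 could be tested. In Dnmt1 KO, list A had 8 genes lower and 1 higher, with a median log2 fold change of -1.49, and list B had 6 higher and 1 lower, with a median of 0.59. Over all genes 6.04% were called lower and 8.13% higher, with a median of 0.01. Within classes 31 of the 68 pairs of list A were lower and 4 higher, and 42 of the 144 pairs of list B were higher and 5 lower, beside 9.05% of all pairs called and 4.45% called lower.

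Cdkn1c, a cell cycle inhibitor, had 11.2, 9.84 and 7.94 CPM in Dnmt1 KO and 220 to 393 CPM in WT (median 345), fell by 4.98 (SE 0.22, edgeR adjusted p = 8.0e-11) and was called lower in 6 of 7 classes. Slc22a3, an organic cation transporter, fell by 5.19 (edgeR adjusted p = 3.9e-06), to 4 UMIs over the 3 Dnmt1 KO embryos. All 4 were in Dnmt1 KO 1, so the fitted value, which was -9.55 without that embryo and -4.50 without Dnmt1 KO 2, depends on the prior count and gives no size for the fall. Ascl2, a trophoblast factor, rose by 4.32 (edgeR adjusted p = 5.5e-05), with 4.62, 59.6 and 6.27 CPM in Dnmt1 KO against 0.61 to 3.53 CPM in WT. Its highest value was in Dnmt1 KO 2, where ExE ectoderm made up 31.3% of cells. Without that embryo the fitted rise was 2.18, and without WT 2 it was 4.96. Within classes Ascl2 was called in 0 of 4, with log2 differences of -0.87 to 1.23. Igf2, given above, was also on this list.

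In list B the 4 largest rises were in Peg10, H19, Peg3 and Impact. Peg10, a retrotransposon-derived gene needed in the placenta, had 525, 536 and 292 CPM in Dnmt1 KO and 78.5 to 142 CPM in WT, a rise of 2.10 (edgeR adjusted p = 4.3e-07). H19, the untranslated RNA next to Igf2, had 1439 ± 312 CPM in Dnmt1 KO against 492 ± 50.7 CPM and rose by 1.61. The zinc finger gene Peg3 rose by 1.54, from 336 ± 32.2 to 934 ± 93.2 CPM, and Impact by 1.36, from 42.8 ± 4.53 to 105 ± 16.1 CPM. Mirg (1.03) and Zrsr1 (1.22) were the other genes called higher and Peg12 (-1.23) the one called lower. Mirg's call was lost in 7 of 29 alternatives, among them the fits without Dnmt1 KO 1, WT 1 or WT 2, Peg12's was lost in 2, among them that without Dnmt1 KO 2, and Zrsr1's was lost in 2, among them that with sex in the model (edgeR adjusted p = 0.012). By class, Impact was called higher in 6 of 7, Peg10 in 5 of 7, and H19 and Peg3 in 3 of 7 each. Zrsr1 was called higher in 4 of 6 classes and Mirg in 2 of 6. Peg12 was called in 0 of 6, with log2 differences of -0.72 to 0.84. Over both lists, 0 genes were called over the whole embryo in Dnmt3a KO or Dnmt3b KO by edgeR, where 1 and 5 of list A and 6 and 5 of list B had an unadjusted p under 0.05 and DESeq2 also called 0 of either list. Within classes 3 of 146 pairs of list A were called in Dnmt3b KO, all of them higher, beside 0.694% of pairs called over all genes.

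**Figure D5:**
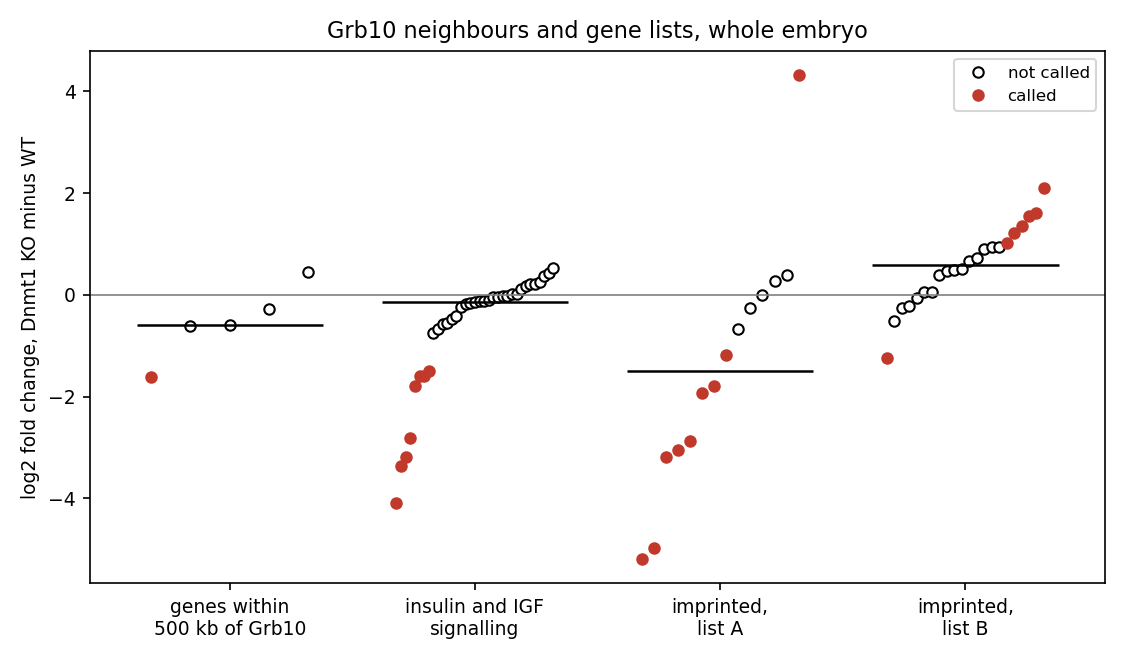
Log2 fold change (Dnmt1 KO minus WT, whole embryo) of each tested gene near Grb10, of the insulin and IGF signalling list and of imprinted lists A and B, sorted within each; filled points were called and lines mark list medians. The medians are -0.59, -0.14, -1.49 and 0.59, and the highest point is Ascl2 at 4.32.

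The genes most like Grb10 were sought among 7542 genes with at least 10 CPM in WT. Over the 17 samples the highest Pearson r of log2(CPM + 1) were those of Dnmt1 (0.99), Cdkn1c (0.98), Hoxc8 (0.98), Ankrd1 (0.98) and Foxd1 (0.98). All 5 were low in the same 3 Dnmt1 KO embryos, which set these values: over the other 14 samples r was 0.74 for Dnmt1, 0.21 for Cdkn1c, 0.66 for Hoxc8, 0.43 for Ankrd1 and 0.38 for Foxd1. Foxd1, a forkhead factor of mesenchyme, went from 23.9 ± 3.51 CPM in WT to 0.26 ± 0.12 CPM in Dnmt1 KO, and Ankrd1, a cardiac muscle gene, from 31.1 ± 5.03 to 0.44 ± 0.27 CPM. Somitic mesoderm, the WT class with the most Foxd1, made up 2.61% ± 0.91 of WT cells and 0.015% ± 0.026 of Dnmt1 KO cells. The cardiomyocyte cluster with Ankrd1 among its leading genes held 0 Dnmt1 KO cells. The part of cell shares in these falls was not tested. Over the 18 WT classes the genes most like Grb10 included Auts2 (r = 0.91), Zcchc11 (0.90), Brd3 (0.90) and Pbrm1 (0.90), and ExE endoderm had the lowest level of each. The classes share libraries, and cells of ExE endoderm reached a median depth as low as 3023 UMIs. None of these 4 was called in Dnmt1 KO: Auts2, a regulator of neural genes, had 45.7 ± 17.1 CPM against 59.6 ± 10.7 CPM, and Brd3, a reader of acetylated histones, 121 ± 18.7 CPM against 123 ± 15.4 CPM.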

How the data were processed

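Single E8.5 embryos were profiled with 10x 3′ v3 chemistry. The deposited files hold counts, UMIs per gene and barcode, which the authors made with Cell Ranger against mm10. The file headers give version 3.1.0 in 17 libraries and 5.0.0 in Dnmt3b KO 12 (the methods name 5.0.0 for all), and 4 libraries (number 1 of WT, numbers 1 and 13 of Dnmt3a KO, and number 11 of Dnmt3b KO) used a combined human and mouse reference, of which the mouse genes were kept. The methods state default mapping, under which these versions count exonic reads of the sense strand.

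Barcodes with at least 1500 mouse UMIs, at most 30% mitochondrial and at most 35% ribosomal UMIs were kept (115669 of 128881), and 7650 predicted doublets were removed, at a rate of 0.8% per 1000 cells. Cells were clustered with scanpy 1.11.5 and named from marker lists. The score limits for naming were set after cluster scores were seen, and unnamed cells were 15.7% ± 2.81 of WT, 18.0% ± 6.05 of Dnmt1 KO, 15.0% ± 2.58 of Dnmt3a KO and 13.1% ± 1.57 of Dnmt3b KO.

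UMIs were summed per embryo, or per embryo and class with at least 25 cells, and 1 model of the 4 groups was fitted to 17 samples by edgeR 4.0.16 (TMM, filterByExpr, quasi-likelihood test, Benjamini-Hochberg adjustment over all genes of the fit). Calls required an adjusted p below 0.01 and a change of 1 or more on the log2 scale. CPM is per 1000000 UMIs of the same cells. On counts simulated for 18766 genes, the Dnmt1 KO, Dnmt3a KO and Dnmt3b KO comparisons recovered 95, 98 and 95 of 100 genes changed by a log2 fold of 2. At a log2 fold of 1.5 they recovered 88, 92 and 91 of 100. The changed genes were drawn from those with higher counts, so genes with few UMIs are not covered. Alternatives were DESeq2 1.42.0, other scalings and filters, covariates, thinning and leaving out each library.

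The genes and lists were chosen with earlier results of these data known. Named genes were Grb10, tested genes within 500 kb, up to 4 called members per list with the largest fold change, Grb7, Grb14, the targeted genes and the 5 most alike over samples and over classes. Of those alike over classes, 1 is not reported here. Other list members that are named were picked after their values were seen. Of list B, 23 of 25 genes had a row, and the others are not analysed here.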

Additional observations from a re-analysis of the deposited data

How the results depend on the processing

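The fitted Grb10 difference in Dnmt1 KO ranged from -6.96 to -6.22 when each library was left out and was -6.53 with the replicate number as a block, and a non-overlapping lower level was kept in 4 of 4 classes at a minimum of 50 cells. Grb10 in Dnmt3a KO was near 0 and changed sign with the reference covariate (0.029), the WT class shares (0.011) and the replicate block (0.095), and ranged from -0.090 to 0.049 when each library was left out. In Dnmt3b KO it was 0.36 with the replicate block and -0.15 to 0.23 when libraries were left out: 0.0022 without the library labelled Dnmt3b KO 12, -0.04 without 11, and 0.23 without both, an alternative chosen after seeing the data. Neither was called under any alternative run. Of the genes near Grb10, 0 were called with all barcodes of at least 1500 UMIs or with only the 2 groups compared in the fit, and 0 to 1 when each library was left out. When each library was left out, calls in Dnmt1 KO were 7 to 8 for the insulin and IGF list, 9 for list A and 6 to 9 for list B. The causes of these changes were not tested.

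Whether equal replicate numbers pair the samples is not known. The correlations of same-numbered deviations from the group means with WT were 0.18, -0.07 and -0.34 for Dnmt1 KO 1 to 3. They were 0.55 and 0.18 for Dnmt3a KO 1 and 2, and -0.49 and 0.08 for Dnmt3b KO 1 and 2. Samples with unlike numbers were not compared, so these values cannot decide it. With the replicate block the lists had 6 (insulin and IGF), 8 (A) and 4 (B) calls in Dnmt1 KO, and all genes had 1428, 1 and 0 calls in Dnmt1 KO, Dnmt3a KO and Dnmt3b KO, against 2659, 40 and 338. The Dnmt1 KO calls of Ins2 (adjusted p = 0.0128), Insrr (0.0592), Slc22a18 (0.0123), Mirg (0.025), Peg12 (0.0242) and Zrsr1 (0.0146) were lost with the block in edgeR, and those of Ins2, Slc22a18 and Zrsr1 also with sex in the model. Over all genes, Dnmt3a KO calls were 118 with DESeq2, 23 without Dnmt3a KO 2 and likewise without Dnmt3a KO 13, 67 without WT 2 and 85 without the library labelled Dnmt3b KO 12, and Dnmt3b KO calls were 201 after thinning to the smallest library and 192 without the library labelled Dnmt3b KO 12.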
